A study of Mus musculus with 8 samples.

Results

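The replication-dependent histone genes were taken from the mRNA table as every gene whose symbol begins with Hist1h, Hist2h, Hist3h or Hist4h, which gave 68 genes of 22481 gene symbols. By cluster, 55 genes belonged to Hist1 on chromosome 13, 10 to Hist2 on chromosome 3, 2 to Hist3 on chromosome 11 and 1 to Hist4 on chromosome 6. By class, 6 genes encoded the linker histone H1, 19 encoded H2A, 18 H2B, 12 H3 and 13 H4. The sequenced RNA was labelled as that of cardiac extracellular vesicles (EVs) of 10 weeks old C57BL/6J mice. The paper describes their isolation from left ventricles by collagenase digestion and ultracentrifugation. The sham group held 4 mice that were operated on without ischemia, and the IR group held 4 mice with 45 min of ischemia followed by 24 h of reperfusion, with 1 library per mouse and no transgene or further treatment in either group. The libraries were depleted of ribosomal RNA and not selected for poly(A) tails.

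Histones package DNA into nucleosomes, each of which is a core of H2A, H2B, H3 and H4 with H1 at the linker. Replication-dependent histone genes are transcribed mainly in S phase, when new DNA has to be packaged, so their mRNAs are abundant in dividing cells and scarce in cells that have left the cell cycle. Their mRNAs end in a conserved stem-loop, bound by the stem-loop binding protein, in place of a poly(A) tail, and a library of total RNA can therefore hold them. Some of these genes also give polyadenylated mRNAs in differentiated cells, and a few are used in the male germline.

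The stem-loop is shown because it sets these genes apart from other mRNAs and because its letters differ by class. A 16-base stem-loop was found within 150 bases after the stop codon in 63 of the 67 histone genes with a coding sequence in GENCODE on mm10 (GRCm38), and it began 21 to 58 bases after the stop (median 30). The letters searched on the coding strand were those of the known stem-loop consensus, with a pyrimidine or purine allowed at its variable places. No match was found for Hist1h2an, Hist1h4b, Hist1h4j and Hist2h2be. There were 7 distinct forms, each given here for 1 gene, 5′ to 3′, with the stem-loop in capitals and 5 bases on each side.
Hist1h2ak: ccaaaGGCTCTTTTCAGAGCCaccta
Hist1h2bk: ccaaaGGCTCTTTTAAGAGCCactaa
Hist2h2ac: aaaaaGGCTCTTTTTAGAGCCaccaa
Hist1h3g: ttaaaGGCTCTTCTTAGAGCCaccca
Hist1h4d: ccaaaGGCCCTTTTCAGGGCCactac
Hist1h4i: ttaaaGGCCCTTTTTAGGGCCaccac
Hist1h4a: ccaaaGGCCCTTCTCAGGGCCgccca
The form of Hist1h2ak (minus strand, chr13:21753382-21753397) was shared by 41 genes of classes H1, H2A, H2B and H3. The form of Hist1h2bk (plus strand, chr13:22036300-22036315) was shared by 9 genes, again with none of class H4. Hist2h2ac (minus strand, chr3:96220418-96220433) and Hist1h3g (plus strand, chr13:23535889-23535904) each had a form of their own. The stems with 3 C on the left arm were found in H4 genes alone, in 8 genes as in Hist1h4d (plus strand, chr13:23581950-23581965), in 2 as in Hist1h4i (minus strand, chr13:22040966-22040981) and in 1 as in Hist1h4a (minus strand, chr13:23760800-23760815).

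Promoters of Hist1h2bk, Hist1h2bq, Hist2h2aa2 and Hist1h4d are shown as examples. No histone gene was called in the comparison below. With edgeR over all 8 libraries, Hist1h2bk and Hist1h4d were not at an unadjusted p under 0.05 either. RefSeq windows on GRCm38.p6, from 250 bases before to 50 after the start, were matched by symbol for 62 of the 68 genes, with 63 windows in all. They were searched on both strands for the octamer ATTTGCAT, known from H2B promoters, for TATAAA and for CCAAT, and matches were allowed to overlap. The octamer was found in 14 of 63 windows (22.2%), against 1.74% of 32851 promoters of all genes, and all 14 belonged to H2A (7 of 18) or H2B genes (7 of 17). For 3 pairs of an H2A and an H2B gene with overlapping windows on opposite strands, the same octamer was counted in both windows. TATAAA was found in 35 windows (55.6%, against 13.6% of all promoters). CCAAT was found in 54 windows (85.7%, against 37.4%), which included every H1, H2A, H2B and H3 window but 3 of the 12 H4 windows. These windows are printed 5′ to 3′ on the strand of the gene, with matches in capitals.
Hist1h2bk: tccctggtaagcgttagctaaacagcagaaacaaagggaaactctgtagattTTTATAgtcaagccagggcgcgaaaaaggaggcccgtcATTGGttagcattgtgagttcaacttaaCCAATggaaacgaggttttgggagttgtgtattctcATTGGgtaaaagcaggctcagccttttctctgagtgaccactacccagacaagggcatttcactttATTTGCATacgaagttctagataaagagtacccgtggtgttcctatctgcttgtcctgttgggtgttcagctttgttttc
Hist1h2bq: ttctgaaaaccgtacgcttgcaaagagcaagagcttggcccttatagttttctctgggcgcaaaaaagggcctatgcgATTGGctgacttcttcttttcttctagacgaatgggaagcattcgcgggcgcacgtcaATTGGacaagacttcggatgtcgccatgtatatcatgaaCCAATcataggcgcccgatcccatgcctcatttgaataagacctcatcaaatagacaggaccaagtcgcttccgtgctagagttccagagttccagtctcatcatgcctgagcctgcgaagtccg
Hist2h2aa2: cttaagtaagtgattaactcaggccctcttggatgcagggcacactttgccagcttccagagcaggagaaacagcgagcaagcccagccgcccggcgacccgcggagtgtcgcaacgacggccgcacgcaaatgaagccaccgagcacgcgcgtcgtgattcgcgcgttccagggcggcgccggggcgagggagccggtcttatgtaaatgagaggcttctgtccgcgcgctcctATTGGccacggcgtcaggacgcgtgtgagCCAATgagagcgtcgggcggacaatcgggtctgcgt
Hist1h4d: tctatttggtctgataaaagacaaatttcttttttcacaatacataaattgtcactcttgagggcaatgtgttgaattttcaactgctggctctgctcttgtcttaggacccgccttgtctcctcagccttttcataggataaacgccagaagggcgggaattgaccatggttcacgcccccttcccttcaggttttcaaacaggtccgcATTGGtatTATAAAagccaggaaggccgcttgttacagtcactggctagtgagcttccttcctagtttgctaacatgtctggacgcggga
The Hist1h2bk window (plus strand, chr13:22035571-22035870) also covers most of the promoter of Hist1h2ah, which starts on the other strand, and holds the octamer. The Hist1h2bq window (minus strand, chr13:21810150-21810449) lies head to head with Hist1h2ao. The Hist2h2aa2 (minus strand, chr3:96240325-96240624) and Hist1h4d (plus strand, chr13:23581318-23581617) windows have no octamer. Such head-to-head arrangements, with overlapping windows on opposite strands, were found for 10 pairs, each of 1 H2A and 1 H2B gene. The starts of a pair were 164 to 281 bases apart. Pairs could be found only among the 62 genes with a window, so the count may be too low. Hist1h2ac (minus strand, from chr13:23683948) and Hist1h2bc (plus strand, from chr13:23684199) are not in it, as Hist1h2bc has no window.

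The mRNA table gave 13824430 to 22497256 fragments per library. Histone genes took 0.081% to 0.231% of the fragments and 0.386% to 1.07% of the summed FPKM, a level scaled to transcript length and library size. The label of cardiac EVs was checked against markers. Of 10 cardiomyocyte genes, Myl2, Nppa, Mb and Csrp3 were at 0 fragments in all 8 libraries, and the list summed to 2.62 to 3.33 FPKM in sham and 1.21 to 2.61 FPKM in IR. A list of 10 enterocyte genes, such as Apoa1 and Fabp1, summed to 19511 to 24745 FPKM in sham and 22136 to 33694 FPKM in IR. The defining cardiomyocyte markers were thus absent or near 0 at this depth, while intestinal genes were abundant in every library. These values do not bear out the label of cardiac EVs, and the source of the RNA was not tested. In bulk RNA, fewer cells of a type and less RNA per cell cannot be told apart.

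Histone mRNAs were present in all 8 libraries. The median histone gene had a mean of 26.6 FPKM, against 8.65 FPKM for the median of all genes tested, and 20 histone genes had a mean over 50 FPKM. The H4 gene Hist1h4d was the highest, with 380.1, 305.3, 195.6 and 237.9 FPKM in sham 1 to 4 and 252.3, 172.2, 223.6 and 178.5 FPKM in IR 1 to 4. Its coding sequence shares no 100-base window with another histone gene. The other 9 of the 10 highest, in falling order of mean FPKM, were Hist1h4h (146.3), Hist1h4f (111.4), Hist1h2ak (109.9), Hist1h4c (91.4), Hist2h2bb (86.6), Hist1h4m (75.2), Hist1h2bc (72.7), Hist1h4n (69.5) and Hist1h2bn (67.5). All of these encode core histones, with H4 genes in 6 of the 10 places, and H4 genes made up 36.5% to 43.0% of the summed histone FPKM in every library. Of the 10, 8 belonged to Hist1 besides Hist1h4d and 1, Hist2h2bb, to Hist2. FPKM is scaled to transcript length, and in fragments the order differed. Summed over the 8 libraries, the H1 gene Hist1h1c had 13203 fragments and Hist1h4d 9027. Mean fragments per library were 5588 in sham and 3637 in IR for H1 genes, and 6973 and 4372 for H4 genes. In FPKM these means were 277.0 and 200.2 for H1 genes, and 1109 and 782.5 for H4 genes.

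The summed level of the 68 genes differed more among the sham mice than between the groups. It was 4679.7, 3095, 1714 and 2102 FPKM in sham 1 to 4 and 2209, 1564, 2323 and 1728 FPKM in IR 1 to 4. Sham 1 stood highest and sham 2 second, while sham 3 and sham 4 lay within the range of the IR libraries, so the groups overlapped. The means were 2898 ± 1323 FPKM in sham and 1956 ± 367 FPKM in IR (SD, n = 4 mice per group). The mean IR sum was 0.675 of the sham mean with sham 1 and 0.849 of it without. In CPM (counts scaled to library size) with edgeR's TMM factors, which set the average gene equal across libraries, these ratios were 0.759 and 0.923. Within a group, the highest sum was 2.73 times the lowest in sham and 1.49 times the lowest in IR, in FPKM.

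**Figure D1:**
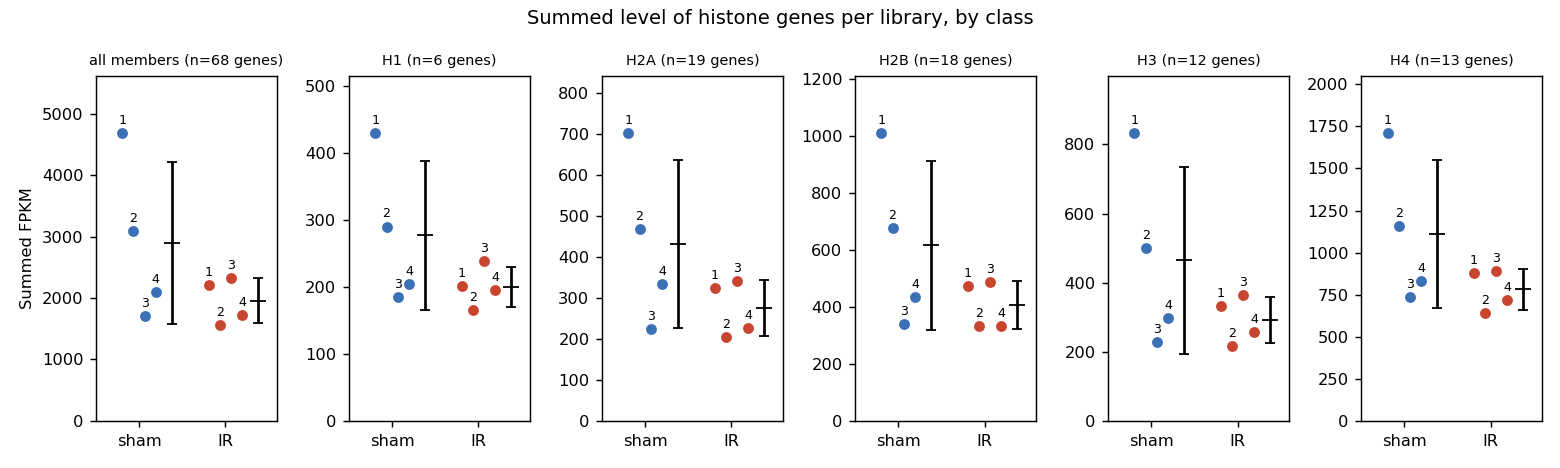
Summed FPKM of histone genes (vertical axis, from 0, each panel with its own scale) in the sham and IR libraries, for all 68 genes and by class. Points are single libraries with their number, and black bars are the group mean ± SD (n = 4); sham 1 is highest in every panel, and sham 3 and sham 4 lie within the IR range for all members together.

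Sham 1 was highest and sham 2 second in each of the 5 classes and in Hist1 and Hist2, and sham 3 and sham 4 lay within the IR range in each. Summed over H3 genes, the class with the widest range over the 8 libraries (3.86-fold), the level was 831.9 FPKM in sham 1 and 227.0 FPKM in sham 3. H1 genes were at 429.3 FPKM in sham 1 and 184.3 FPKM in sham 3. Summed over Hist1, the level was 2611 ± 1190 FPKM in sham and 1765 ± 319 FPKM in IR, and over Hist2 it was 268.4 ± 127.4 and 177.8 ± 47.2 FPKM. Hist4h4, the only Hist4 gene, had 14.5 FPKM in sham 1, 5.94 to 8.54 in the other sham libraries and 3.93 to 6.61 in IR. Of the 2 Hist3 genes, Hist3h2a was at 5.69 to 11.6 FPKM in sham and 5.46 to 8.08 FPKM in IR, and Hist3h2ba, an H2B gene, was at most 0.729 FPKM in any library.

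Gene by gene, sham 1 was the highest of the 8 libraries for 58 of the 62 histone genes tested, against 23.9% of the 12716 genes tested. Sham 2 was second for 48 of the 62. IR 4 was the lowest library for 23 histone genes, sham 3 for 18 and IR 2 for 17, so the lowest levels were found in both groups. The correlation of log2 levels between 2 histone genes over the 8 libraries had a median of 0.88 (Pearson r, a description over points that share library, depth and scaling). With the sum of all other histone genes, 45 of the 62 had an r of 0.9 or more. Under 0.5 were Hist1h2ao, Hist1h2bc, Hist1h2bp, Hist2h2aa1 and Hist2h2be. Hist2h2aa1 had the lowest r, at 0.25.

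**Figure D2:**
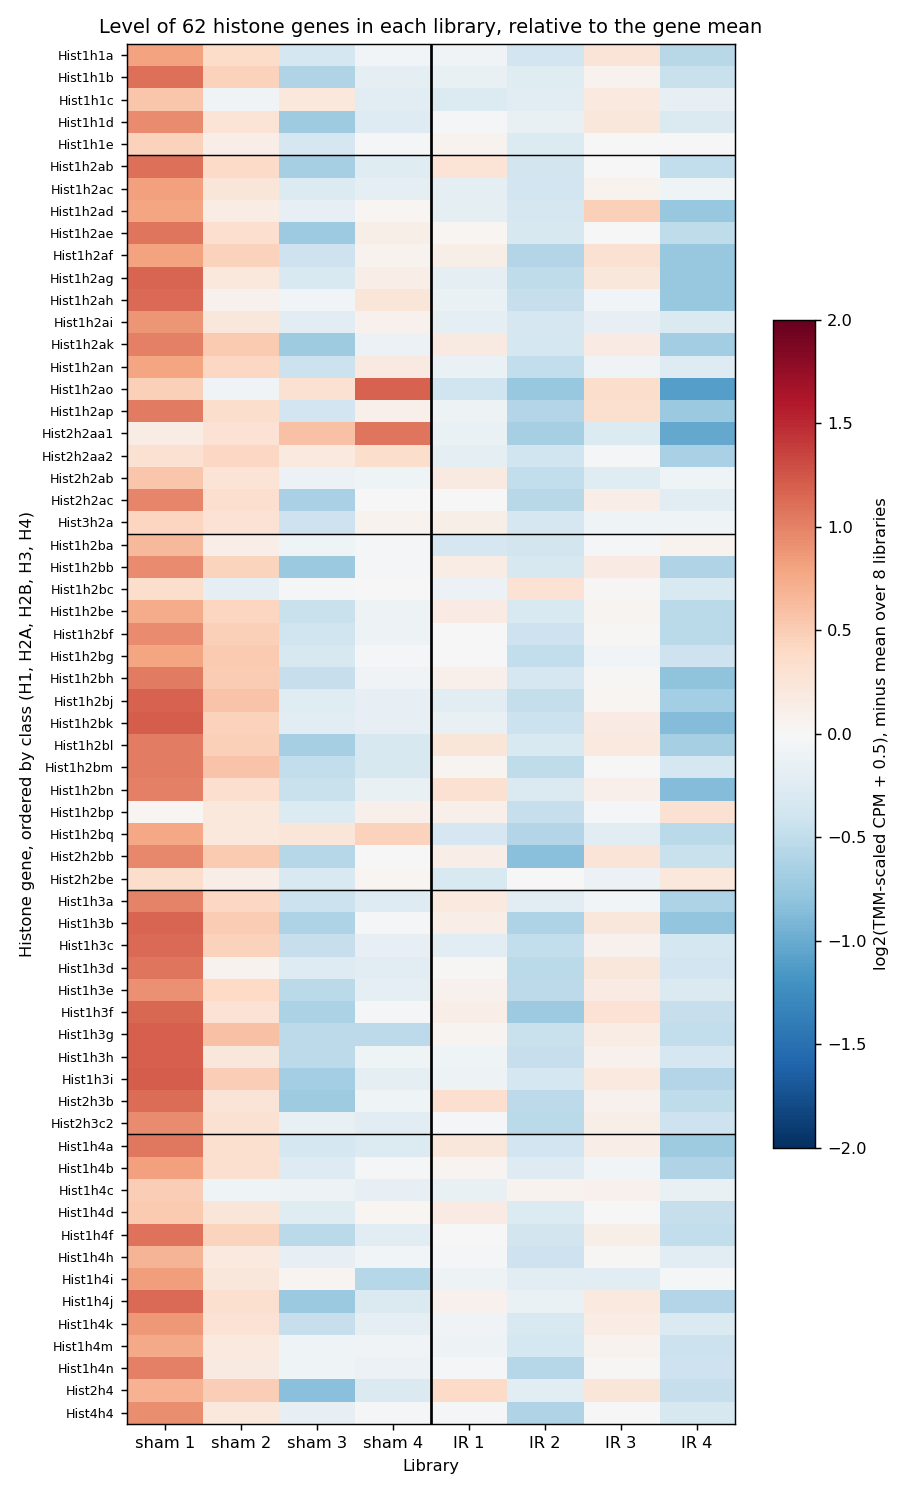
Level of each of the 62 histone genes tested (rows, by class) in each library (columns), as log2(TMM-scaled CPM + 0.5) minus the gene's mean over the 8 libraries. Red is above and blue below the gene's mean; the sham 1 column is red in nearly every row, and Hist2h2aa1 and Hist1h2ao are instead highest in sham 4.

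IR-EVs were compared with S-EVs to ask which histone mRNAs differ after reperfusion. With edgeR's quasi-likelihood test over 12716 genes with a mean of at least 0.5 FPKM, 62 of the 68 histone genes could be tested. None passed an adjusted p under 0.05 with a fold change over 2, and neither did any other gene (0% of the genes tested called lower). With DESeq2 and with limma, too, no histone gene passed both criteria; over all genes DESeq2 called 40. At an unadjusted p under 0.05, 7 of the 62 histone genes were lower in IR and 0 were higher, against 4.86% of all genes lower. The fitted log2 fold change was below 0 for all 62, from -1.31 to -0.049, with a median of -0.47. Over all genes tested, 50.1% were below 0 and the median was -0.00071.

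The size of this shared direction depended on sham 1. Without it, 53 of the 62 fitted values were below 0 (47.9% of all genes) and the median was -0.14, and 4 histone genes were lower at an unadjusted p under 0.05 (3.52% of all genes). Without sham 3, in which histone genes were low, the median was -0.66 and 35 of the 62 were lower at an unadjusted p under 0.05 (5.36% of all genes). In neither fit did a histone gene pass the adjusted threshold.

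By class, the medians with and without sham 1 were -0.26 and -0.088 for the 5 H1 genes tested, and -0.55 and -0.25 for the 17 H2A genes. They were -0.52 and -0.19 for the 16 H2B genes, -0.54 and -0.098 for the 11 H3 genes, and -0.41 and -0.11 for the 13 H4 genes. Of the 7 genes at an unadjusted p under 0.05, 5 were H2A and 2 were H2B, and none was H1, H3 or H4. By cluster, 5 belonged to Hist1 (51 tested, median -0.47) and 2 to Hist2 (9 tested, median -0.43). Differences between classes or clusters were not tested.

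**Figure D3:**
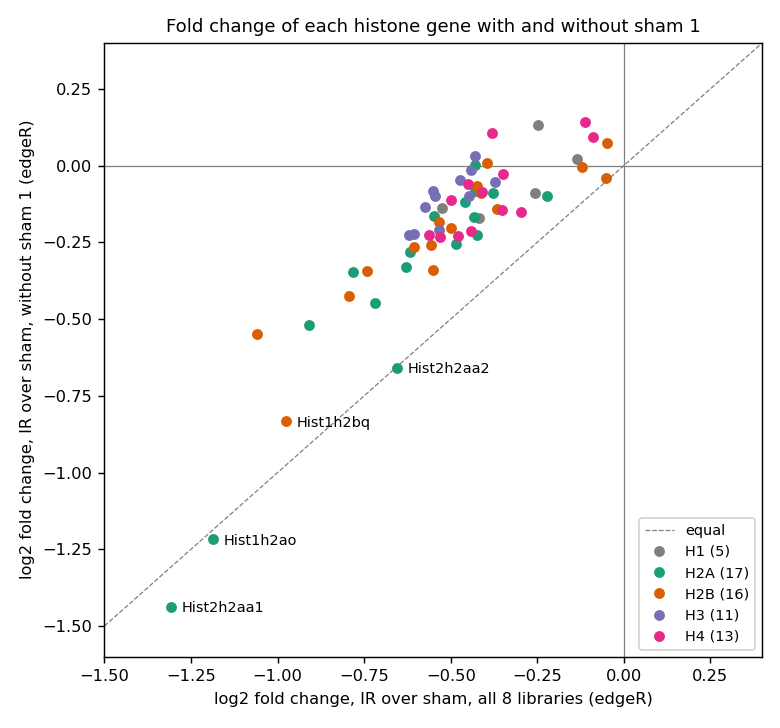
edgeR log2 fold change (IR over sham) of each of the 62 histone genes from all 8 libraries (horizontal) and without sham 1 (vertical), coloured by class; the dashed line marks equal values. Most genes move from a median of -0.47 to -0.14, while Hist2h2aa1, Hist2h2aa2, Hist1h2bq and Hist1h2ao stay near or below the line.

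In both FPKM and TMM-scaled CPM, the groups did not overlap for the H2A genes Hist2h2aa1 and Hist2h2aa2, in which sham 1 was not the highest library. The same held for the H2B gene Hist1h2bq, in which sham 1 was highest. Over all genes tested, 4.37% lay wholly below in IR in FPKM and 2.7% in TMM-scaled CPM. Hist2h2aa2, an H2A gene (minus strand, chr3:96239749-96240276), had 22.7, 24.2, 18.5 and 21.1 FPKM in sham 1 to 4 and 13.7, 10.8, 15.4 and 10.6 FPKM in IR 1 to 4. Every IR value was below every sham value, with means of 21.6 ± 2.41 and 12.6 ± 2.31 FPKM (SD, n = 4). The log2 fold change was -0.65 (SE 0.17), and -0.66 without sham 1, with an adjusted p of 0.455 from edgeR over all 8 libraries.

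Hist2h2aa1 (plus strand, chr3:96245497-96246082), a second copy with the same coding sequence, had 5.38, 5.88, 6.78 and 9.90 FPKM in sham and 3.59, 2.04, 3.13 and 1.71 FPKM in IR. The groups did not overlap here either, and sham 1 was the lowest of the sham libraries rather than the highest. The log2 fold change was -1.31 (SE 0.34, edgeR adjusted p = 0.455), from 12 to 98 fragments per library. Because fragments from identical sequence may be split between the copies in the authors' counting, the values of the pair were also summed. The sum was 28.1, 30.0, 25.3 and 31.0 FPKM in sham and 17.3, 12.9, 18.5 and 12.3 FPKM in IR, again without overlap. Its log2 fold change was -0.80 (SE 0.18) with an adjusted p of 0.456 from edgeR.

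Hist1h2bq, an H2B gene (minus strand, chr13:21806612-21810197), had the smallest p of the histone genes. It was at 3.16, 2.02, 1.89 and 2.27 FPKM in sham 1 to 4 and 1.15, 0.872, 1.28 and 1.09 FPKM in IR 1 to 4, from 35 to 111 fragments per library, and the groups did not overlap. The log2 fold change was -0.97 (SE 0.21, edgeR adjusted p = 0.455), and -0.83 without sham 1. It was the only histone gene with an adjusted p under 0.05 in DESeq2, at 0.0229, with a change just under 2-fold. Its copy with the same coding sequence, Hist1h2br, was under the level needed for the test, and their summed FPKM also kept the groups apart, at 1.99 to 3.76 in sham and 0.995 to 1.84 in IR.

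Hist1h2ao, the H2A gene head to head with Hist1h2bq, had 7.38, 4.53, 5.64 and 11.6 FPKM in sham and 2.92, 1.84, 5.74 and 1.44 FPKM in IR. IR 3 lay above sham 2 and sham 3, so the groups overlapped. Its log2 fold change was -1.19 (SE 0.47, edgeR adjusted p = 0.480), from 8 to 88 fragments per library. Summed with Hist1h2ap, which has the same coding sequence and a mean of 22.2 FPKM, the log2 fold change was -0.71 (edgeR adjusted p = 0.517).

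Hist1h2ah, an H2A gene head to head with Hist1h2bk, was at 15.0, 6.50, 5.17 and 6.70 FPKM in sham and 4.71, 3.29, 5.09 and 2.95 FPKM in IR. The groups were apart in FPKM by a small margin (5.09 in IR 3 and 5.17 in sham 3) and overlapped in TMM-scaled CPM. The log2 fold change was -0.91 (SE 0.35, edgeR adjusted p = 0.480) with sham 1 and -0.52 without it. In all, the groups did not overlap for 4 of the 62 histone genes in FPKM (4.37% of all genes lay wholly below in IR) and for 3 in TMM-scaled CPM (2.7% of all genes). No histone gene lay wholly above in IR on either scale.

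**Figure D4:**
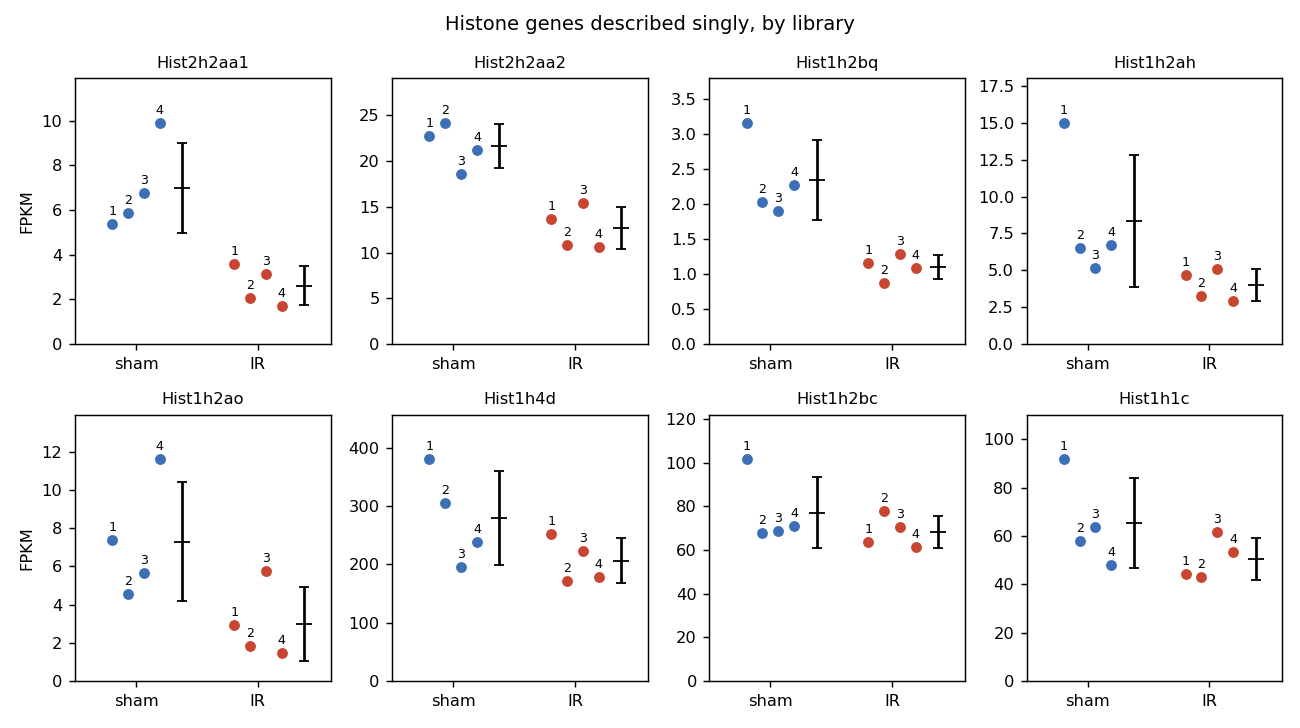
FPKM of 8 histone genes (vertical axis, from 0, each panel with its own scale) in each sham and IR library; points carry the library number and black bars are the group mean ± SD (n = 4). Hist2h2aa1, Hist2h2aa2 and Hist1h2bq keep the groups apart, whereas in Hist1h4d, Hist1h2bc and Hist1h1c they overlap and sham 1 is highest.

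Sequence shared between copies limits what single values mean. Of the 68 genes, 8 had the same coding sequence as another (Hist1h2ao and Hist1h2ap, Hist1h2bq and Hist1h2br, Hist1h4m and Hist1h4n, Hist2h2aa1 and Hist2h2aa2), and 39 shared 50% or more of their 100-base coding windows with another. The 4 genes still at an unadjusted p under 0.05 without sham 1, namely Hist1h2ao, Hist1h2bq, Hist2h2aa1 and Hist2h2aa2, were all among these 8. The part of fragment assignment in their values was not tested beyond the sums above. The 8 tested genes that shared no coding window, which include Hist1h4d, Hist2h2bb, Hist3h2a and Hist4h4, had a median log2 fold change of -0.36 with sham 1 and -0.15 without it, and none was at an unadjusted p under 0.05.

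Both partners were tested in 8 head-to-head pairs. All had fitted values below 0, but so had all 62 histone genes tested, so the sign does not set pairs apart. Hist1h2ag and Hist1h2bj were at -0.78 and -0.79, and Hist1h2ae and Hist1h2bg at -0.55 and -0.55. Hist1h2ak and Hist1h2bn, the most abundant pair, were at -0.46 and -0.42. Hist1h2ah and Hist1h2bk were at -0.91 and -0.74, and Hist1h2bf and Hist1h2ad at -0.56 and -0.43. Hist1h2bl and Hist1h2ai were at -0.39 and -0.63, and Hist1h2bq and Hist1h2ao at -0.97 and -1.19. The furthest apart were Hist1h2an at -0.72 and Hist1h2bp at -0.053. Hist1h2bp also had a low r with the other histone genes, but both values rest on 3 to 10 fragments per library (SE 0.45).

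The sum of the 5 histone genes known to be also polyadenylated, to which Hist1h1c and Hist1h2bc contributed most, had a narrower range over the libraries than the sum of the rest. It was 221.6 FPKM in sham 1, 135.1 to 146.7 FPKM in the other sham libraries and 123.5 to 147.1 FPKM in IR. The highest library was 1.79 times the lowest, against 3.11 times for the sum of the other 63 genes. Hist4h4 alone ranged 3.69-fold. Hist1h2bc, the H2B gene with the highest mean FPKM after Hist2h2bb, was at 101.5, 67.8, 68.5 and 70.8 FPKM in sham and 63.6, 77.9, 70.3 and 61.2 FPKM in IR. Its log2 fold change was -0.049 (SE 0.16, edgeR adjusted p = 0.937), and 0.072 without sham 1. Hist1h1c, a linker histone, was at 65.3 ± 18.8 FPKM in sham and 50.5 ± 8.77 FPKM in IR (log2 fold change -0.26). Hist2h2be, Hist3h2a and Hist4h4 had log2 fold changes of -0.12, -0.22 and -0.53. None of the 5 was at an unadjusted p under 0.05.

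The germline histone genes were near 0. Hist1h2aa, a testis H2A, had 0 fragments in all 8 libraries, and Hist1h1t, the testis linker histone, had 1 to 8 fragments per library. Hist1h2ba, a testis H2B, had 1 to 11 fragments and 0.198 to 2.60 FPKM. With Hist1h2al, annotated as a pseudogene, Hist1h2br, Hist2h3c1 and Hist3h2ba, Hist1h1t and Hist1h2aa made up the 6 histone genes under the 0.5 FPKM minimum.

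Genes that act with histones in S phase were compared over the same libraries. All 44 S-phase replication genes had fitted log2 fold changes below 0 (50.1% of all genes), with a median of -0.31 (-0.085 without sham 1). At an unadjusted p under 0.05, 4 were lower (4.86% of all genes) and 0 higher. Without sham 1, 1 of the 44 was lower (3.52% of all genes). The 4 genes were Rfc3 and Rfc5, subunits of the clamp loader, Tk1, thymidine kinase, and Uhrf1, which links DNA methylation to replication. Rfc3 was at 10.5, 12.6, 9.61 and 8.29 FPKM in sham and 5.90, 5.73, 6.75 and 6.62 FPKM in IR (edgeR log2 fold change -0.47, SE 0.15, adjusted p = 0.455). Its groups did not overlap in FPKM, where 4.37% of all genes lay wholly below in IR. The median S-phase gene stood 0.69 above its own mean (log2) in sham 1 and 0.31 below it in IR 2, against 0.94 above and 0.39 below for the median histone gene. Its r with the summed histone level was 0.85 over 8 libraries and 0.55 over the 7 without sham 1, against -0.021 and 0.019 for the median of all other genes.

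The other lists varied less or differently. Of 20 tested genes for histone mRNA processing and transcription (median -0.12), 1 was lower at an unadjusted p under 0.05 (4.86% of all genes). It was Lsm11, a part of the U7 particle that cuts histone mRNAs, at 1.05 ± 0.141 FPKM in sham and 0.668 ± 0.180 FPKM in IR. Of 18 histone chaperones, Chaf1b, a subunit of the chromatin assembly factor, was at 3.08 ± 1.36 and 1.75 ± 0.236 FPKM (log2 fold change -0.72, median of the list -0.15). Most replacement histones are made throughout the cell cycle, mainly as polyadenylated mRNAs. Of 10 tested, H1f0 was at 79.3 ± 2.94 and 63.3 ± 6.67 FPKM (edgeR log2 fold change -0.23, adjusted p = 0.494). The list had a median log2 fold change of -0.18 and a median r of 0.36 with the histone sum. Single genes of the list differed, with an r of 0.95 for H2afx and 0.90 for H2afz but -0.065 for H1f0 and -0.33 for H2afj. The 20 genes of G2 and M phase had a median of -0.23 (0.14 without sham 1), with 0 at an unadjusted p under 0.05. In IR 4, the median gene of G2 and M phase stood 0.44 above its mean while the median histone gene stood 0.46 below.

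**Figure D5:**
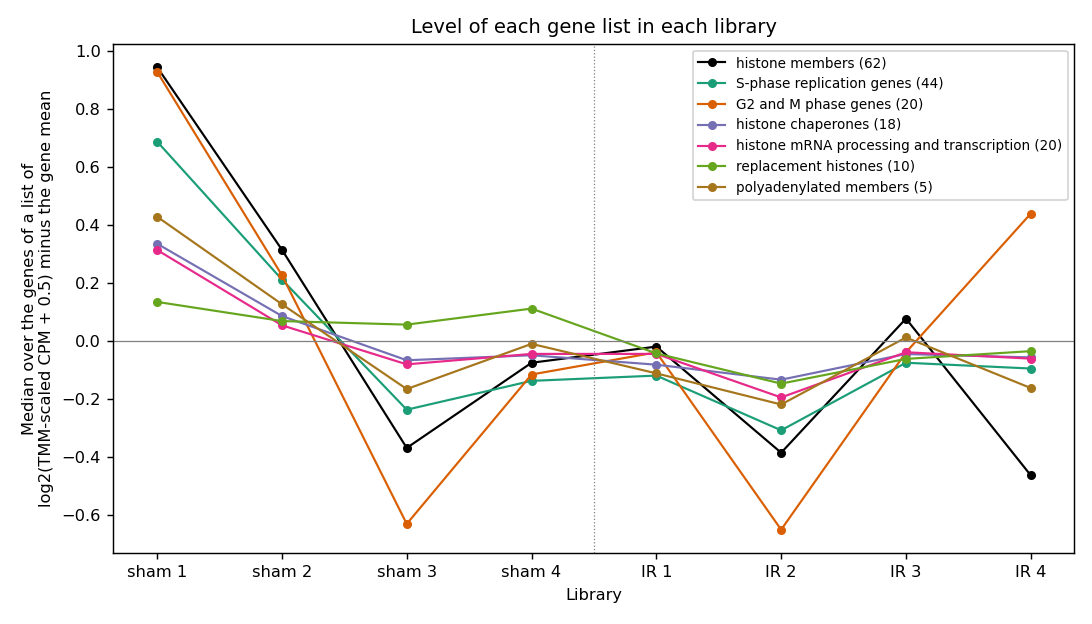
Median over the genes of each list (number tested in brackets) of log2(TMM-scaled CPM + 0.5) minus the gene's mean over the 8 libraries (vertical axis), for each library. Histone genes (black) and genes of G2 and M phase are highest in sham 1 and both are low in sham 3 and IR 2, but they part in IR 4, at -0.46 and 0.44.

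Markers of cell types also differed between libraries. Enterocyte genes had a median log2 fold change of 0.41 with 5 of 10 higher at an unadjusted p under 0.05, and 8 T cell genes a median of 1.31 with 5 higher. Over all 12716 genes tested, 619 were higher and 618 (4.86%) lower at that p. Crypt stem cell genes, which mark the dividing base of the intestinal epithelium, had a median of -0.28 with 2 of 8 lower, Ascl2 (1.05 ± 0.269 FPKM in sham, 0.367 ± 0.042 in IR) and Smoc2. Whatever their p, 6 of the 8 crypt genes were fitted lower and 2 higher, among the latter Rnf43 at a log2 fold change of 0.30. Medians were 0.99 for 3 B cell and plasma cell genes (1 higher), 0.55 for 5 macrophage genes (1 higher), 0.09 for 4 erythroid genes and -0.32 for Tnnt2, the only cardiomyocyte gene tested. Without sham 1, 4 enterocyte, 4 T cell, 1 macrophage and 0 B cell and plasma cell genes were higher, and 1 crypt gene was lower. In that fit, 471 of all genes were higher and 447 lower. In sham 1, the library with the highest histone level, the median T cell gene stood 1.30 below its mean (log2), the median enterocyte gene 0.38 below and the median crypt gene 0.28 above. In sham 2, where the median histone gene stood 0.31 above its mean, these stood 0.37 above, 0.36 below and 0.41 above. In sham 3, where the median histone gene stood 0.37 below, they stood 1.05, 0.036 and 0.075 below. The part of these cell types in the histone levels was not tested.

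The 10 genes outside the histone clusters whose log2 level was most like the summed histone level over the 8 libraries were Emg1, Fam98a, Cps1, Cacybp, Pola1, 2810417H13Rik, Ccdc34, Wdr76, H2-Ke2 and Prepl, with Pearson r from 0.984 down to 0.964. Without sham 1 their r was 0.918 to 0.970. Pola1, the catalytic subunit of DNA polymerase alpha, was at 6.45, 4.92, 3.12 and 2.93 FPKM in sham 1 to 4 and 2.65, 2.26, 3.89 and 2.74 FPKM in IR 1 to 4, highest in sham 1 and then sham 2 like the histone genes. Of the 12654 genes compared, 114 (0.901%) had an r of 0.9 or more, as did 8 of the 44 S-phase genes.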

How the data were processed

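RNA labelled as that of cardiac EVs, from 4 sham and 4 IR mice, was sequenced. Per the submitters' notes, reads were trimmed (cutadapt 1.9.3) and aligned to mm10 (HISAT2), and levels were estimated with Cufflinks and Cuffdiff. The versions of the last 3 tools, the annotation and any use of strand in counting are not given in the sources used here. The authors used Cuffdiff to compute the deposited FPKM. The estimated counts were deposited by the authors after scaling by 1 factor per library; each was divided by the most frequent value (1 fragment) and rounded. Among values under 1000 fragments, 90.6% to 91.0% lay within 0.02 of a whole number. The locus given for a histone gene often covers several genes, so positions came from GENCODE.

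edgeR 4.0.16 under R 4.3.3 (TMM factors, robust quasi-likelihood F test, two-sided) was run over all 12716 genes whose mean reached 0.5 FPKM, and p-values were adjusted over all of them by Benjamini and Hochberg's method. Genes were called at an adjusted p below 0.05 if the change also exceeded 2-fold. Standard errors, taken as the size of the log2 fold change over the root of F, are approximate. The script was tested on simulated data. The histone genes, the lists and the rule for named genes were chosen with earlier results of these data known. The genes named were the 10 highest, the 5 with the smallest p in each direction (none was fitted higher), those without overlap between groups on both scales, the germline and polyadenylated genes, up to 4 per list and the 10 most like the sum; further histone genes were picked once their values were known. Alternatives were limma 3.58.1 on log2(FPKM + 0.1) or + 1, other filters and scalings, DESeq2 1.42.0, the replicate number as a block, no fold criterion, each entry alone and each library left out. Summing copies with the same coding sequence was added after the data were seen. Plots were made with Python 3.11.15 and matplotlib 3.10.9.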

Additional observations from a re-analysis of the deposited data

Results flagged for a closer look

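Among the sums and named histone genes, 3 values stood apart from the other 3 libraries of their group by Dixon's criterion at 95%, of 68 groups of 4 examined; chance alone flags about 1 in 20 groups. All 3 were in sham 1. The 5 polyadenylated histone genes summed to 221.6 FPKM there, with the next sham library at 146.7 FPKM. Hist1h2bc had 101.5 FPKM, with the next at 70.8 FPKM. Hist1h2ah had 15.0 FPKM, with the next at 6.70 FPKM.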

How the results depend on the processing

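Under every alternative run, 0 histone genes were called and 0 were higher at an unadjusted p under 0.05. The number lower at an unadjusted p under 0.05 was 7 in the main analysis, 11 with DESeq2, 5 with copies of the same coding sequence summed, and 3 (without IR 2, and without IR 4) to 35 (without sham 3) with 1 library left out; it was 4 without sham 1 or IR 1, 11 without IR 3 and 12 without sham 4. The median log2 fold change ran from -0.57 (library size only, without TMM, where the median of all genes was -0.080) to -0.40 (replicate block) and, with 1 library left out, from -0.66 to -0.14. With limma on log2(FPKM + 0.1) the histone median was -0.50 and that of all genes -0.10. Of 20 named histone genes with a fold change, the sign changed for 2. Hist1h4c was at -0.16 to 0.094 with 1 library left out (above 0 without sham 1), and Hist1h2bc at -0.17 to 0.072 (above 0 without sham 1 or IR 4). Of all 62 tested, 9 were above 0 without sham 1. The sign also changed for the median of G2 and M phase genes, at -0.42 to 0.14 (above 0 without sham 1). The cause was not tested. The log2 ratio of summed levels was -0.40 in TMM-scaled CPM and -0.57 in FPKM. The replicate numbers did not pair mice (correlations of deviations of -0.17, -0.35, 0.013 and 0.049 for equal numbers), and with the replicate number as a block 5 histone genes were lower at an unadjusted p under 0.05. Low counts limit Hist1h2ao, Hist1h2bp, Hist2h2aa1 and the germline genes.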

Other observations

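In the lncRNA table, BC160303, annotated as overlapping the exon of Hist1h3d on the same strand, was at 50.9, 34.3, 13.2 and 21.4 FPKM in sham 1 to 4 and 18.6, 12.1, 23.4 and 11.6 FPKM in IR 1 to 4, the same order of sham 1 over sham 2 as in the histone genes. Of 19 lncRNA transcripts annotated at histone genes, 4 had a mean of at least 0.5 FPKM, and BC160303 was the highest. Reads of the transcript and of Hist1h3d cannot be told apart where the annotations overlap.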
